A study of Mus musculus with 16 samples.

Results

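The 10 genes described here are the NF-κB subunits and the proteins that restrain or release them: the subunit genes Nfkb1, Nfkb2, Rel, Rela and Relb, the inhibitor genes Nfkbia, Nfkbib and Nfkbie, the kinase gene Ikbkb and the feedback gene Tnfaip3. They were found by symbol among 23299 genes in the ileal table, and all 10 were among the 19042 genes tested. The set was chosen by function, and Nfkb1 was chosen on measured values, namely its level in WD-fed Tas1r3-/- against WD-fed wild-type mice. Its values in that comparison, and in every other comparison that used those WD libraries, are given as a description with no test.

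Terminal ileum was taken from C57BL/6 mice, wild type or Tas1r3-/-, after 10 weeks on a normal diet (ND) with plain water or on a Western diet (WD), which paired a 60% high-fat diet with a 30% sucrose solution. Tas1r3 encodes a subunit of the sweet and umami taste receptors. The labels gave 4 samples per group, 2 males and 2 females, and named no further allele or agent. The tissue was whole ileum, so fewer cells of a type and less RNA per cell cannot be told apart.

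NF-κB is a dimer of subunits that IκB proteins hold in the cytoplasm. Signals from cytokine and microbial receptors activate the IκB kinase, which marks IκB for degradation and lets the dimer enter the nucleus. There it switches on inflammatory genes along with its own brakes, among them the genes for IκBα and A20, and in the gut it is known for both host defence and chronic inflammation.

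Before the members are described, some columns of the table need to be set apart. The ND-fed Tas1r3-/- female columns equalled weighted means of the male columns (0.75 and 0.25 of males 1 and 2 for female 1, 0.625 and 0.375 for female 2) in all but 18 of 59258 transcripts, which belonged to 13 genes. One of those 18 was Nfkbie-201, with 0.696 and 0.909 RPKM against 0.446 and 0.534 from the weights. These columns were left out, so that the ND-fed Tas1r3-/- group held 2 male libraries. In WD-fed Tas1r3-/- mice, 2 times female 2 minus female 1 came out with at most 6 digits in 96.8% of transcripts, so that 1 column was related to the other. Both were averaged into 1 library. The implied value was below 0 in 0.333% of transcripts and in 2 of 48 transcripts of the members, Nfkb1-205 and Nfkbie-201. This left 13 libraries, 4, 2, 4 and 3 in the order WT-ND, KO-ND, WT-WD and KO-WD, where WT is wild type and KO is Tas1r3-/-.

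Values were RPKM, reads scaled by transcript length and library size, summed over the transcripts of a gene. The steps between low values implied 7003819 to 12384373 reads per library (median 9220328), and 1 read on a transcript of 1 kb was worth 0.0692 to 0.139 RPKM. Nearly all values had at most 6 significant digits. Longer values occurred 169 times, in 102 transcripts of 70 genes (0.300% of all genes), and 7 of them lay in the members. Nfkb1 held 5, all in WD libraries: Nfkb1-205 in WT-WD male 1, female 1 and female 2, Nfkb1-206 in WT-WD male 2 and Nfkb1-201 in KO-WD male 2. Nfkb2 and Nfkbie held 1 each. The targeted gene, Tas1r3, had 1.80 to 2.95 RPKM in WT-ND and 4.21 to 6.27 in WT-WD libraries, against 0.000726 to 0.00452 in the Tas1r3-/- libraries, which is 0.0236 to 0.172 of a read. It also held values with more than 6 digits.

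The promoters of the feedback members are shown first, because these genes are known to be switched on by NF-κB itself. RefSeq windows of 250 bases before a start site were at hand for 7 of the 10 members (10 windows on GRCm38.p6), and Nfkb1, Relb and Ikbkb had none. The motif searched was GGGNNNNNCC, a loose form of the κB site, on both strands (GGNNNNNCCC on the other), with overlapping matches counted. Matches are in capitals in the windows of Nfkbia (chr12:55492648-55492897, minus strand), the upstream start of Tnfaip3 (chr10:19015411-19015660, minus strand) and the first start of Nfkb2 (chr19:46304487-46304736, plus strand).
Nfkbia: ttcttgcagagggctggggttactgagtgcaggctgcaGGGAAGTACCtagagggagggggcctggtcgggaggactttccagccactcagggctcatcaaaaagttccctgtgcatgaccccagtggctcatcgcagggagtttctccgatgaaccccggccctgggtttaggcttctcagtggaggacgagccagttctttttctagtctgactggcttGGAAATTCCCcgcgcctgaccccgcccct
Tnfaip3: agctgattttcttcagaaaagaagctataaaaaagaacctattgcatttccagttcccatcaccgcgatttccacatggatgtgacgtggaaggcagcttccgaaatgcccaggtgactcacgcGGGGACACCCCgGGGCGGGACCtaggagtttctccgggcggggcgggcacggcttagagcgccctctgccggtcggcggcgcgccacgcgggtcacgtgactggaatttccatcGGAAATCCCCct
Nfkb2: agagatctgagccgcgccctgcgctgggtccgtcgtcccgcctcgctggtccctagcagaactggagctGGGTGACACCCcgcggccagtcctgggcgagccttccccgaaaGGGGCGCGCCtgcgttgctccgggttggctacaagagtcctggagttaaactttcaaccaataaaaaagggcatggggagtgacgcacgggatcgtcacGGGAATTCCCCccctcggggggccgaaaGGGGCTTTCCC
At least 1 match was found in 9 of the 10 member windows and in 45.8% of all 32851 windows. Nfkbia had 2 matches, Tnfaip3 had 4 and Nfkb2 had 7, several of them overlapping, and of all windows 23.2% had 2 or more and 4.97% had 4 or more. Nfkbib, in which IκBβ is encoded, had none in its window. A match to these letters is a description of the sequence only.

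Among the subunits, Nfkb1 stood apart. It encodes p105, which is processed to p50 and pairs with RelA in the canonical dimer, and lies at chr3:135584655-135691547 on the minus strand. Its RPKM was 26.6, 30.4, 34.1 and 32.0 in the WT-ND libraries (males 1 and 2, then females 1 and 2). It was 15.9 and 28.9 in the KO-ND males. It was 29.2, 33.8, 29.7 and 26.5 in WT-WD, and 9.59, 8.61 and 8.04 in KO-WD (males 1 and 2, then the female library). The KO-WD libraries were the lowest 3 of the 13, and male and female libraries of that group lay within 2 RPKM of each other. Group means were 30.8 ± 3.16 (SD, n = 4) in WT-ND, 22.4 ± 9.18 (n = 2) in KO-ND, 29.8 ± 3.02 (n = 4) in WT-WD and 8.75 ± 0.782 (n = 3) in KO-WD.

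**Figure D1:**
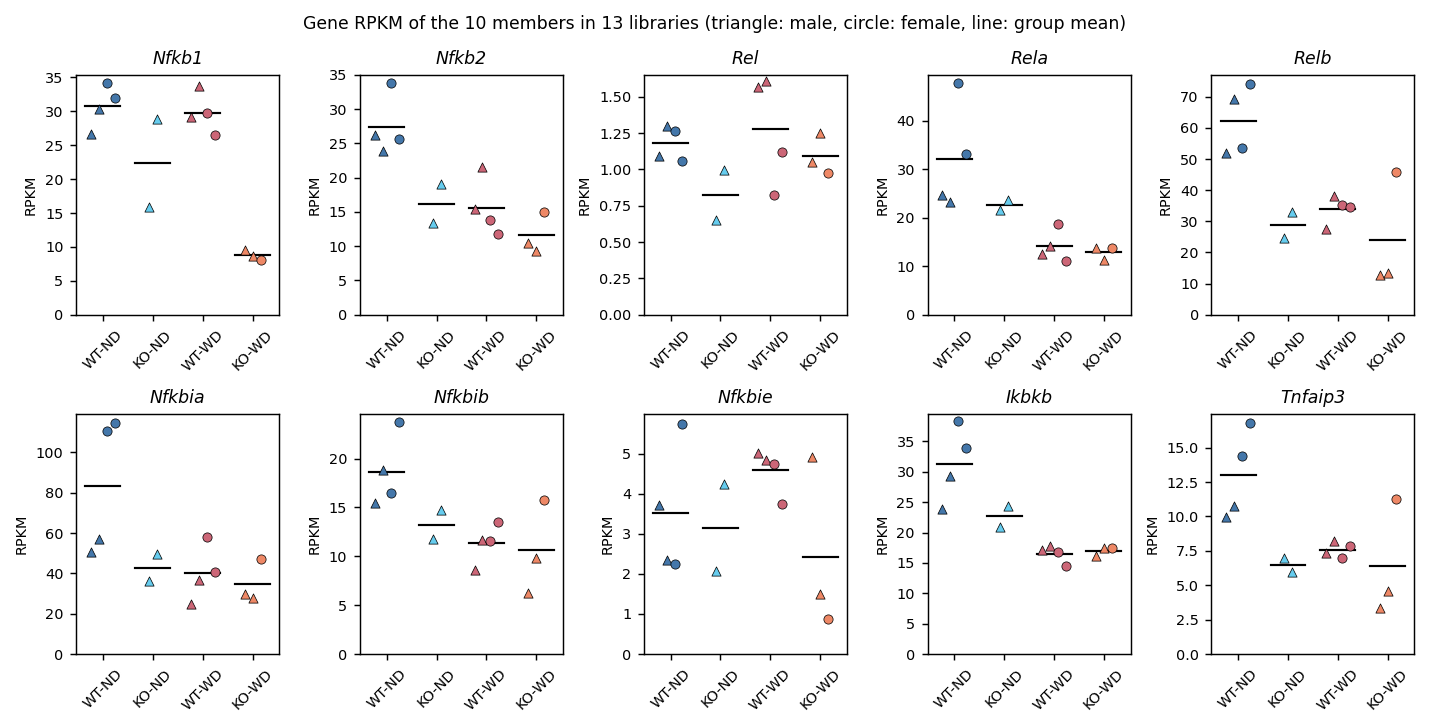
Gene RPKM (vertical axes, starting at 0) of the 10 members in the 13 libraries, by group; triangles are males, circles females and lines group means. Nfkb1 lies between 8.04 and 9.59 in all KO-WD libraries, while Relb and Tnfaip3 in the KO-WD female library (45.9 and 11.3) lie above the KO-WD males.

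In KO-WD against WT-WD the fitted log2 difference of Nfkb1 was -1.62 (SE 0.16), 3.08-fold lower. Nfkb1 was the 1 member past the threshold used throughout, an adjusted p under 0.01 with a change of at least 2-fold, which 0.0105% of tested genes passed, and since this is the comparison that chose it, nothing is read from that count. Groups also did not overlap for Nfkb1 alone among the members, against 1.44% of genes whose KO-WD libraries were all lower. The fitted value was 0.40 (SE 0.15) higher in WT-WD than in WT-ND, where the scaled groups did not overlap while the unscaled RPKM did (26.6 to 34.1 in WT-ND, 26.5 to 33.8 in WT-WD). It was 0.89 (SE 0.19) lower in KO-WD than in KO-ND. These 3 differences share libraries.

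In the 1 comparison that shares no library with the choice, KO-ND against WT-ND, Nfkb1 was not called (log2 fold change -0.34, SE 0.18, adjusted p = 0.894 by limma). The SE and adjusted p rest on a spread that the model also took from the WD libraries. The exact two-sided permutation test on the ND libraries gave p = 0.133. The difference in genotype effect between diets was -1.28 on the log2 scale (SE 0.24), again a description.

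The 9 Nfkb1 transcripts in the table, of 10 annotated, showed which RNAs made up this level. Only Nfkb1-201 and Nfkb1-206 are annotated as protein-coding, and the rest as retained intron, nonsense-mediated decay or processed transcripts. Nfkb1-201 had 3.26, 7.40, 4.70 and 4.53 RPKM in WT-WD and 1.44, 1.74 and 1.06 in KO-WD. Nfkb1-209, a decay-annotated form, had 4.48, 6.49, 5.37 and 4.84 in WT-WD and 0.67, 0.23 and 0.78 in KO-WD, the lowest ratio of the 9 (0.114 of the scaled means). All 9 had a lower mean in KO-WD, and in 6 the groups did not overlap. Nfkb1 was chosen on this comparison and the 9 share its libraries, so nothing is read from these counts. Among the 6, Nfkb1-201, Nfkb1-205 and Nfkb1-206 held values with more than 6 digits. Nfkb1-204, Nfkb1-208 and Nfkb1-210, each under 2.5 RPKM in every library, overlapped.

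**Figure D2:**
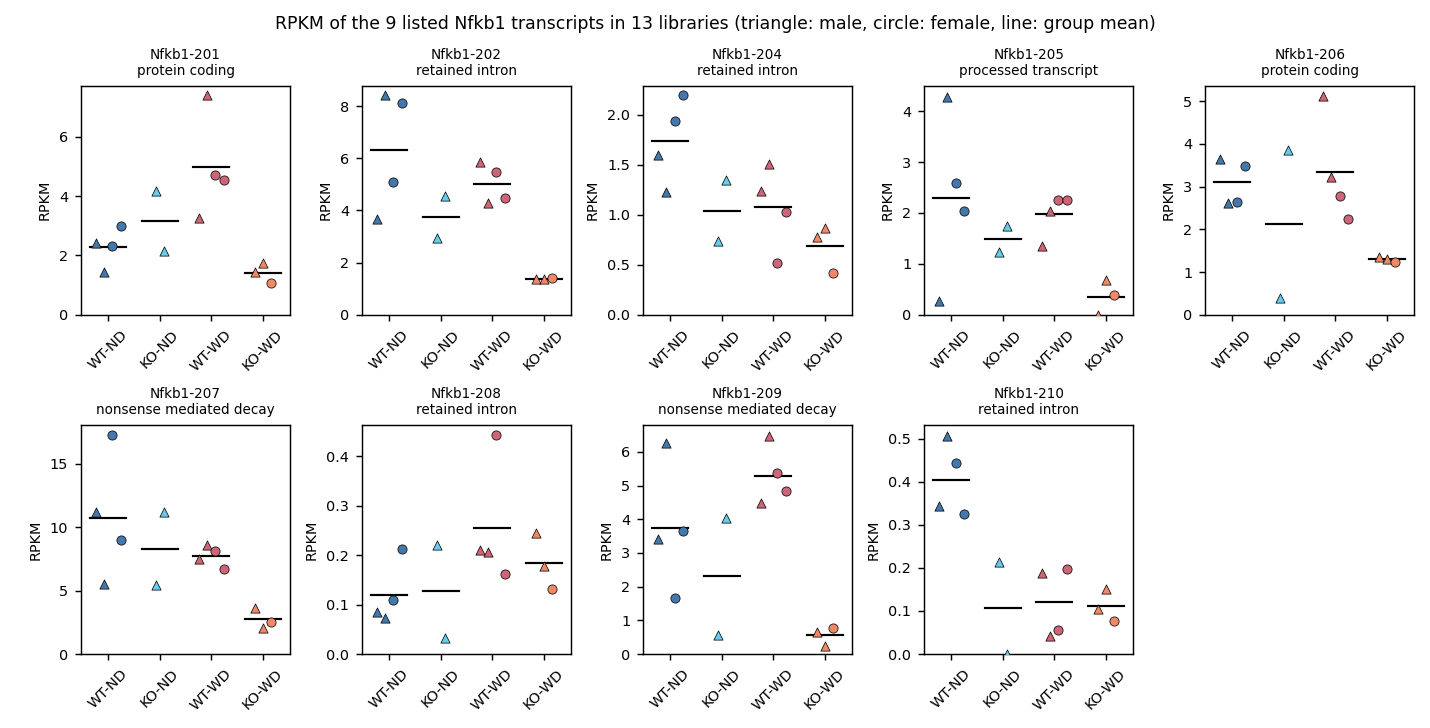
RPKM (vertical axes, starting at 0) of each listed Nfkb1 transcript in the 13 libraries, titled with its annotated type; triangles are males, circles females and lines group means. In 6 of the 9 panels every KO-WD library lies below every WT-WD library on the scaled values, and the remaining 3 are low throughout.

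Nfkb2, which encodes the p100 precursor of p52 and so the partner of RelB in the alternative pathway, had 26.2, 23.9, 33.8 and 25.6 RPKM in WT-ND. It had 13.3 and 19.0 in KO-ND, 15.4, 21.6, 13.8 and 11.7 in WT-WD, and 10.5, 9.35 and 15.0 in KO-WD. In RPKM the WT-ND libraries were above all others, but on the scaled values they overlapped WT-WD. The WD groups overlapped on both scales. KO-WD against WT-WD gave a log2 fold change of -0.31 (SE 0.21, adjusted p = 1.00 by limma).

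Relb encodes the subunit that acts with p52. It had 51.8, 69.4, 53.7 and 74.1 RPKM in WT-ND, 24.5 and 33.1 in KO-ND, 27.5, 38.3, 35.3 and 34.6 in WT-WD, and 12.9, 13.6 and 45.9 in KO-WD. The KO-WD males were the 2 lowest libraries, while the female library of that group was above all WT-WD libraries. Its log2 fold change in KO-WD against WT-WD was -0.64 (SE 0.40, adjusted p = 1.00 by limma), -1.24 without the female library, -0.24 without male 1, -0.30 without male 2 and -0.32 with all 16 columns as labelled, none of them called.

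Rela, which encodes the main activating subunit p65, had lower RPKM in the WD than in the ND libraries. It had 24.7, 23.2, 47.6 and 33.2 RPKM in WT-ND, 21.6 and 23.6 in KO-ND, 12.5, 14.1, 18.7 and 11.1 in WT-WD, and 13.7, 11.3 and 13.8 in KO-WD. In RPKM every WD library lay below every ND library. On the scaled values WT-WD female 1 was above KO-ND male 2, while within each genotype the diets did not overlap. In KO-WD against WT-WD its log2 fold change was -0.01 (SE 0.22), a difference within the spread between libraries. Rel, encoding c-Rel of lymphoid cells, was the lowest member (0.654 to 1.61 RPKM), with a log2 fold change of -0.07 (SE 0.22).

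The ratio of Nfkb1 to its partners was set out per library. Nfkb1 minus Rela, on the scaled log2 scale, was 0.65 to 1.23 in WT-WD and -0.76 to -0.38 in KO-WD, and -0.47 to 0.38 in WT-ND. For 8 of the 9 other members the KO-WD ratios were all below the WT-WD ratios, a description that rests on Nfkb1 itself, and for Nfkbie they overlapped.

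Among the inhibitors, Nfkbia encodes IκBα, the fast feedback inhibitor. It had 50.6, 56.9, 110.5 and 114.7 RPKM in WT-ND, 36.0 and 49.6 in KO-ND, 24.6, 37.0, 58.2 and 40.7 in WT-WD, and 29.7, 27.7 and 47.2 in KO-WD. Females were above males in WT-ND, WT-WD and KO-WD, and the WD groups overlapped (log2 fold change -0.08, SE 0.36, adjusted p = 1.00 by limma). Nfkbib, for IκBβ, had 8.62 to 13.5 RPKM in WT-WD and 6.28 to 15.8 in KO-WD (log2 fold change -0.07, SE 0.33).

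Nfkbie, for IκBε, came next to Nfkb1 in size. It had 3.72, 2.34, 2.24 and 5.75 RPKM in WT-ND, 2.06 and 4.24 in KO-ND, 5.03, 4.85, 4.75 and 3.74 in WT-WD, and 4.91, 1.50 and 0.877 in KO-WD. In RPKM, KO-WD male 1 lay inside the WT-WD range and the other KO-WD libraries below it. The log2 fold change was -0.99 (SE 0.41, unadjusted p = 0.031, adjusted p = 1.00 by limma). It was -0.57 without the KO-WD female library, -1.51 without KO-WD male 1 and -1.78 with protein-coding transcripts alone, none of them called. In KO-WD male 1 the retained-intron transcript Nfkbie-202 had 4.73 RPKM, and protein-coding transcripts made up 3.81% of the gene there against 79.9% to 89.6% in WT-WD libraries. Nfkbie rested on 16.4 to 162 reads per library. All 3 of its annotated transcripts were listed, and its reads came out whole (within 0.02) in 4 of 6 ND columns and 1 of 7 WD columns, while those of Rel and Nfkbia were whole in 13 of 13. Nfkb2, also fully listed, was whole in 0 of 13.

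Ikbkb encodes the catalytic IκB kinase subunit IKKβ. It had 23.9 to 38.3 RPKM in WT-ND, 20.9 and 24.4 in KO-ND, 14.5 to 17.7 in WT-WD and 16.1 to 17.4 in KO-WD. The WD groups overlapped, with a log2 fold change of 0.13 (SE 0.16, adjusted p = 1.00 by limma).

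Tnfaip3 encodes A20, the ubiquitin-editing enzyme that ends NF-κB signalling. It had 9.98, 10.8, 14.4 and 16.8 RPKM in WT-ND, 6.95 and 5.97 in KO-ND, 7.36, 8.20, 6.97 and 7.82 in WT-WD, and 3.37, 4.58 and 11.3 in KO-WD. As for Relb, the KO-WD males were below WT-WD and the female library was above it (log2 fold change -0.31, SE 0.36, adjusted p = 1.00 by limma). Without the female library the value was -0.80, and without KO-WD male 1 it was 0.11.

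**Figure D3:**
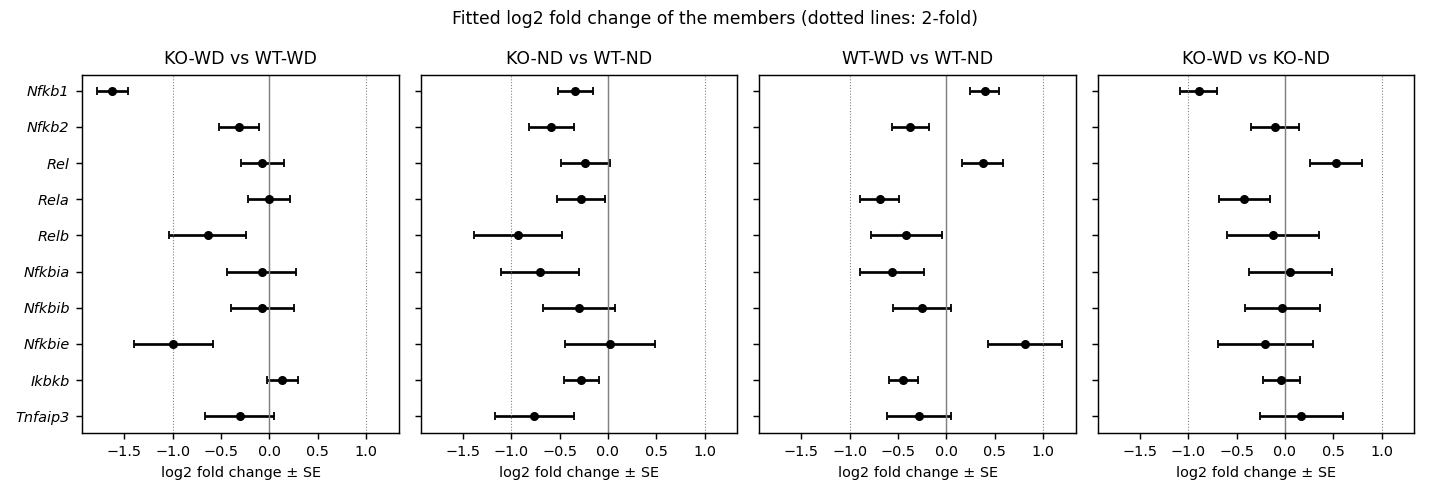
Fitted log2 fold change with its SE (horizontal axis) of each member in the 4 comparisons, with dotted lines at 2-fold. In KO-WD against WT-WD, Nfkb1 lies at -1.62 and the remaining members between -0.99 (Nfkbie) and 0.13 (Ikbkb).

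Across the 9 other members, the median log2 fold change in KO-WD against WT-WD was -0.08, and it was -0.03 over all 19042 genes tested. None of the 9 was called, and 2 genes in all were. The procedure called 34 to 54 of 200 genes that were changed by 1.5 on the log2 scale in simulated data, and 0 of 200 at a change of 1. A change of 1 is about the size fitted for Nfkbie. In the simulation each KO-WD mean was set to the WT-WD mean before the change was added, so the fitted change carried no error. A change of 1 thus lay on the 2-fold limit itself, and these counts give no detection rate for measured genes.

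In KO-ND against WT-ND, 9 of 10 members had lower fitted values in Tas1r3-/- mice, as did 49.0% of all genes tested. Some members varied together, as given below, so the 9 are not independent. The median of the members was -0.32 against 0.01 over all genes. None was called, and 0% of tested genes were (883 genes had an unadjusted p under 0.05, among them 1 member). Nfkb2, Rel, Relb, Nfkbia and Tnfaip3 did not overlap between the groups, all lower in KO-ND, where 13.7% of genes behaved so. The log2 fold changes were -0.58 (SE 0.23) for Nfkb2, -0.23 (SE 0.25) for Rel, -0.93 (SE 0.45) for Relb, -0.70 (SE 0.40) for Nfkbia and -0.76 (SE 0.41) for Tnfaip3, with adjusted p from 0.894 to 0.916 by limma. The exact two-sided permutation test gave p = 0.067 for Nfkb2, Rel, Relb and Tnfaip3, the smallest that 4 against 2 libraries allow, and p = 0.133 for Nfkbia, among 37 such tests of members. KO-ND held males only, and with the WT-ND males alone each group has 2 libraries. Nfkbia was at -0.25 with sex as a covariate and -0.26 in males alone, and Tnfaip3 at -0.45 and -0.56. Rela, at -0.27 (SE 0.25) in all libraries, was at -0.06 with sex as a covariate. The mean scaled log2 value of 8 enterocyte markers, described below, was also 0.99 lower in KO-ND, with no overlap. The part of cell content in this comparison was not tested.

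In WT-WD against WT-ND, none of the members was called, where 0.00525% of genes were. Rela had a log2 fold change of -0.69 (SE 0.20, adjusted p = 0.153 by limma) with lower WD libraries that did not overlap the ND ones, as for 6.44% of genes. Nfkbie had one of 0.81 (SE 0.38, adjusted p = 0.326 by limma) with groups that did not overlap on the scaled values, as for 4.14% of genes. Ikbkb had a log2 fold change of -0.45 (SE 0.15, adjusted p = 0.192 by limma), Nfkbia -0.57 (SE 0.33), Relb -0.41 (SE 0.37), Nfkb2 -0.37 (SE 0.19), Tnfaip3 -0.28 (SE 0.33), Nfkbib -0.25 (SE 0.30) and Rel 0.37 (SE 0.21). With protein-coding transcripts alone, Nfkbia was at -0.09 and Ikbkb at -1.23, neither called. Column sums were 817011 to 819992 in ND and 542371 to 685274 in WD columns, so levels between diets depend on the scaling. Without scaling the median of all genes was -0.38 in this comparison against 0.01 with it, Nfkb1 came out at -0.05 in place of 0.40, and Rela was called at -1.13.

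In KO-WD against KO-ND none was called, and 0% of genes were. Rel was at 0.53 (log2 fold change, SE 0.27, adjusted p = 0.905 by limma) and Rela at -0.42 (SE 0.26, adjusted p = 0.944 by limma), both with groups that did not overlap on the scaled values, while the unscaled RPKM of Rel overlapped. Of all genes, 9.81% were higher and 10.9% lower in that sense. No member was called in the fitted interaction of genotype and diet, in which 0% of genes were called (261 genes had an unadjusted p under 0.05).

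Shares of a gene's RPKM among its own transcripts do not depend on the scaling. Of the 8 members with both protein-coding and other transcripts, Nfkb1, Nfkbia and Tnfaip3 had a higher protein-coding share in every WT-WD than in every WT-ND library, as did 6% of 8354 genes with both kinds. The Nfkbia share was 53.1%, 48.6%, 41.2% and 39.9% in WT-ND and 81.4%, 74.1%, 53.8% and 60.9% in WT-WD (exact two-sided permutation p = 0.029). The retained-intron transcript Nfkbia-202 held the rest, 23.7 to 68.9 RPKM in WT-ND and 4.57 to 26.9 in WT-WD. The Tnfaip3 share was 79.2% to 81.9% in WT-ND and 87.2% to 94.1% in WT-WD (exact permutation p = 0.029). A p of 0.029 is the smallest that 4 against 4 libraries allow, and 16 such tests were run with no adjustment. The Nfkb1 share was 13.4% to 22.7% and 25.1% to 31.5%, a description.

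**Figure D4:**
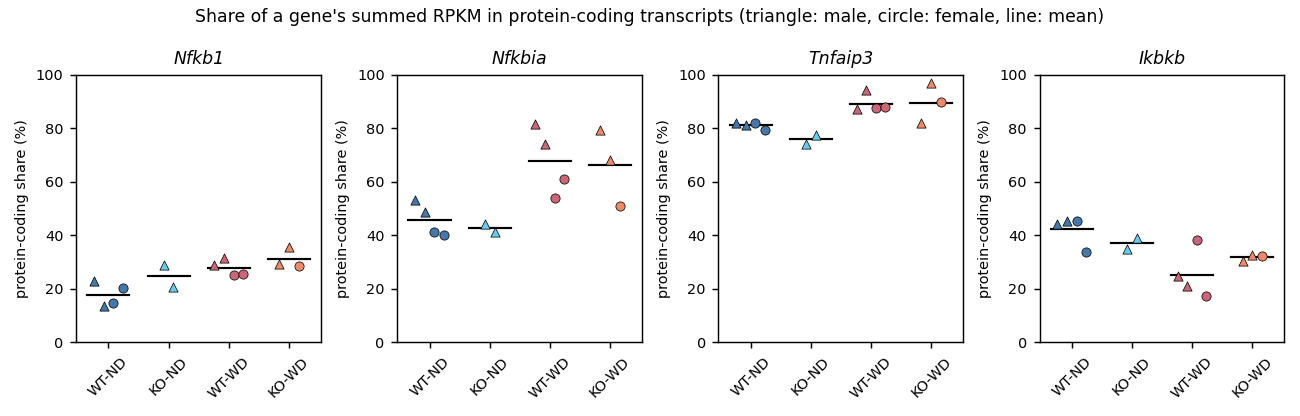
Share of summed RPKM in protein-coding transcripts (vertical axis, percent, 0 to 100) for Nfkb1, Nfkbia, Tnfaip3 and Ikbkb in the 13 libraries; triangles are males, circles females and lines group means. The Nfkbia share is 39.9% to 53.1% in WT-ND and 53.8% to 81.4% in WT-WD libraries.

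Ikbkb went the other way, with 33.7% to 45.4% in WT-ND and 17.1% to 38.1% in WT-WD, overlapping (exact permutation p = 0.057), and 2.57% of genes had a lower share with no overlap. Its decay-annotated share, given as a description, was 19.7% to 23.3% in WT-ND and 35.8% to 44.0% in WT-WD. It was 30.0% to 35.0% in KO-ND and 34.5% to 37.2% in KO-WD. Over all genes, retained-intron transcripts took 11.4% of the RPKM in WT-ND and 9.27% in WT-WD libraries on average. The libraries did not overlap here either (10.0% to 12.8% in WT-ND, 8.87% to 9.64% in WT-WD). The part of this difference in the member shares was not tested. In KO-WD against WT-WD all 8 shares overlapped, where 2.79% of genes were higher and 2.05% lower with no overlap. The Nfkb1 share was 28.6% to 35.5% in KO-WD.

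Some members varied together across libraries, and others did not. Of 45 pairs of members, 31 had a Pearson r above 0 and 14 below 0 over the 13 libraries. Over the 13 libraries, scaled log2 values of Relb and Tnfaip3 had an r of 0.90, Nfkbib and Tnfaip3 0.83, Relb and Nfkbib 0.83 and Nfkb2 and Relb 0.81, while Rel and Rela had -0.74 and Nfkbie and Ikbkb -0.52. These values share libraries and groups and are given with no p. The highest r of Nfkb1 was 0.54 (with Nfkbie), followed by 0.50 with both Relb and Nfkb2, and the highest of Rel was 0.21 (with Nfkbie). Rel was below 0 with 6 members and Nfkbie with 7.

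The tissue label was checked against marker lists. All 8 enterocyte markers passed the filter, with a summed RPKM of 7090 to 10862 in WT-ND, 3075 to 7786 in KO-ND, 2855 to 8845 in WT-WD and 1141 to 4574 in KO-WD. Their mean scaled log2 value was 8.68 in the KO-WD female library against 6.19 and 7.52 in the KO-WD males, which moves with the split of Relb and Tnfaip3 in that group. The same mean value was 7.23 to 7.74 in KO-ND and 8.22 to 8.88 in WT-ND libraries, with no overlap. Its r over the 13 libraries was 0.89 with Relb, 0.89 with Tnfaip3, 0.86 with Nfkbib, 0.67 with Nfkb2 and 0.50 with Nfkb1. The fibroblast list (5 of 5 measured) had an r of -0.94 with Nfkbib, -0.78 with Relb and -0.77 with Tnfaip3. Beside the diet comparison, adipocyte markers (4 of 4 measured) had a summed RPKM of 28.3 to 228 in WT-ND and 28.1 to 119 in WT-WD, and their mean scaled log2 value was 1.48 lower in WT-WD. Its r over the 13 libraries was 0.67 with Rela, 0.72 with Ikbkb and 0.67 with Nfkbia. Plasma cell markers (5 of 5) had 2208 to 5741 and 2659 to 7211, a mean 0.69 higher in WT-WD, with an r of -0.72 with Rela and -0.82 with Nfkbia. The part of cell content in these members was not tested.

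**Figure D5:**
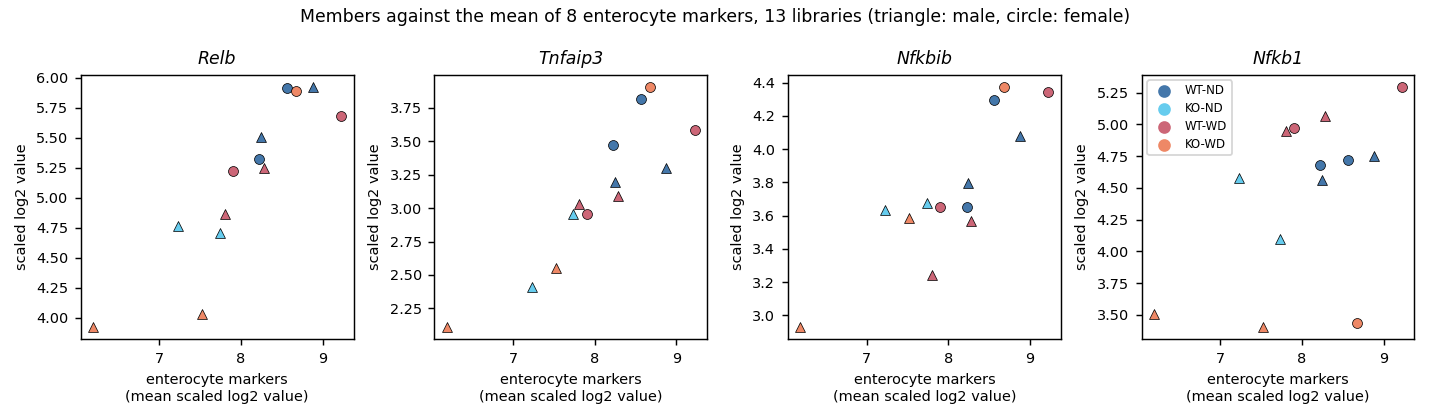
Scaled log2 values of Relb, Tnfaip3, Nfkbib and Nfkb1 (vertical axes, not starting at 0) against the mean of 8 enterocyte markers (horizontal axis), 1 point per library, coloured by group; triangles are males and circles females. Relb and Tnfaip3 are higher where the markers are (r of 0.89 each). The 3 KO-WD libraries, with marker values from 6.19 to 8.68, are low for Nfkb1, which was chosen on its level there, so nothing is read from this.

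B cell markers were at a summed 12 to 46 RPKM in KO-WD and 21 to 36 in WT-WD libraries, with 6 of 8 measured, and T cell markers (8 of 8) at 11 to 22 and 17 to 32. Of the neutrophil list only 1 of 5 passed the filter, and S100a8, S100a9, Ly6g and Retnlg did not. That 1 marker had a scaled log2 value of -0.92 to -0.05 in KO-WD and 0.11 to 0.995 in WT-WD libraries. The summed RPKM of the neutrophil list was only 0.114 to 0.475 in KO-WD, below the pseudocount of 0.5, so these log2 values rest on very low levels. Of all genes tested, 1.44% had KO-WD libraries that were all lower than the WT-WD ones. Macrophage and dendritic markers (8 of 8) were at 56 to 114 and 78 to 178 RPKM. Over the 13 libraries, Nfkb1 had an r of 0.66 with the neutrophil marker and 0.53 with the macrophage and dendritic list. The r of Nfkb1 was 0.25 with T cell, -0.014 with B cell and -0.33 with smooth muscle markers. These values are a description, and the part of such cells in the Nfkb1 level was not tested. The 5 genes most like Nfkb1 over the 13 libraries were Il18 (Pearson r 0.90), Fv1 (0.88), Tas1r3 (0.87), Nos2 (0.86) and Ncoa4 (0.83), of which Il18, Tas1r3 and Nos2 held values with more than 6 digits.

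The wider pathway was described by lists of other genes. Over all genes tested, 55.2% had lower fitted values in KO-WD than in WT-WD, which stands beside the counts of each list. Of 34 kinase and adaptor genes, all tested, 21 had lower and 13 higher fitted values in KO-WD than in WT-WD (median -0.10), and none was called. Chuk, which encodes IKKα, was at -0.10 (SE 0.29) and Ikbkg, the scaffold NEMO, at -0.09 (SE 0.19). Map3k14, the kinase NIK of the alternative pathway, was at -0.64 (SE 0.28) with groups that did not overlap, and also held values with more than 6 digits. Birc3, which encodes the ubiquitin ligase cIAP2, was at -0.19 (SE 0.25).

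The 4 other IκB-family genes all had higher fitted values in KO-WD (median 0.21), none called, with Bcl3 at 0.18 (SE 0.50) and Nfkbiz at 0.22 (SE 0.48). In KO-ND against WT-ND Bcl3 was at -1.62 (SE 0.57, adjusted p = 0.894 by limma), from 33.0 to 172.2 RPKM in WT-ND and 18.3 to 20.7 in KO-ND. Of 19 tested receptor and ligand genes, 12 had lower and 7 higher fitted values in KO-WD (median -0.06).

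Of 36 tested NF-κB targets, 20 had lower and 16 higher fitted values in KO-WD than in WT-WD (median -0.08, and 0.02 without the 5 that held values with more than 6 digits). None was called, and Tnf and Nos2 had an adjusted p under 0.05. Tnf, the cytokine TNF, had 1.97 to 3.78 RPKM in WT-WD and 0.171 to 0.244 in KO-WD (log2 fold change -2.34, SE 0.32, adjusted p = 0.031 by limma). Nos2, the inducible nitric oxide synthase, had 23.9 to 37.2 and 3.62 to 7.79 RPKM (log2 fold change -2.45, SE 0.34, adjusted p = 0.031 by limma). Icam1 (-0.12, SE 0.45), Cxcl10 (0.02, SE 0.55) and Ccl20 (0.25, SE 0.42) differed by less than their errors.

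All 5 genes with an adjusted p under 0.05 in this comparison, Il18, Nfkb1, Nos2, Tas1r3 and Tnf, held values with more than 6 digits, against 70 of 19042 tested genes (0.368%). With the affected transcripts left out, Nfkb1, chosen on this comparison, kept a log2 fold change of -1.63 from the other 6 transcripts. None of these 6 is protein-coding, because Nfkb1-201 and Nfkb1-206 were both left out. With protein-coding transcripts alone, which hold long values, it was -1.32. No gene was called with the affected transcripts left out. What made these values longer was not tested.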

How the data were processed

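Libraries from the terminal ileum of 4 groups of mice were read on an Ion Proton sequencer. The authors mapped reads with STAR in Partek Flow to GRCm38 (mm10 in the submitters' processing notes) and quantified Ensembl transcripts; the deposited values are RPKM per transcript, and their library total is not given in the sources used here. The authors' own tests used DESeq2. RPKM values are no counts, so no count model was used here.

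Transcripts were summed per gene. Lengths, types and coordinates came from GENCODE M21 (98.2% of transcripts matched). Depth was inferred from steps between low values of genes with 1 transcript (86.5% to 87.8% whole within 0.02 reads). To scale the libraries, log ratios were averaged after trimming 30% of the ratios and 5% of the levels at each end. Genes with at least 1 RPKM in at least 2 of the 13 libraries were kept. A pseudocount of 0.5 was added before taking log2, and limma 3.58.1 (R 4.3.3) fitted all 4 groups in 1 model with a trend. Fold changes are on the log2(value + pseudocount) scale and understate those of low genes. Calls needed a Benjamini-Hochberg adjusted p under 0.01 over all genes and a change of at least 2-fold. Exact permutation tests and figures used Python 3.11.15. The fit was tested on simulated data. The study describes points of its ileal transcriptome as individual mice, but with another number per group than the labels give. The labels do not tie samples to animals, and some columns were computed from others, so p-values measure only the spread between these samples.

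The members and lists were chosen with earlier results of these data known. Named genes were the members, 11 standing pathway examples, list genes with an adjusted p under 0.05, and the 5 genes most correlated with Nfkb1. Alternatives covered scaling, pseudocount, filters, sex, replicate number as a block, males, 2 groups alone, all 16 columns, each library left out, long values left out and another threshold, and 3 were chosen after seeing the data (1 KO-WD female column, protein-coding transcripts, WD males).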

Additional observations from a re-analysis of the deposited data

How the results depend on the processing

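In KO-WD against WT-WD, 1 member (Nfkb1) was called. This comparison chose Nfkb1, so nothing is read from that count or from its changes below. The count was 0 with the replicate block, males only, 2 groups alone, long values left out, protein-coding transcripts only and WD males alone, and 0 to 1 with single libraries left out (0 without WT-WD female 2 or any KO-WD library). Nfkb1 lay between -1.71 and -1.32 on the log2 scale in all 28 alternatives. In WT-WD against WT-ND, 1 member (Rela) was called without scaling. Otherwise these counts stayed as reported. Same-numbered samples did not deviate together in every pair (r from -0.17 to 0.57 in 16 pairs, and -0.63 to 0.62 in differently numbered pairs). Deviations were taken from means of small groups, so this cannot exclude a pairing of some samples. The main fit used no pairing.

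Of 40 member values, 23 kept their sign in all alternatives. In KO-WD against WT-WD, Nfkb2 was 0.13 with protein-coding transcripts. Rela was 0.0079 with RLE scaling, 0.067 with sex as a covariate, 0.094 with males only, 0.044 with all 16 columns, 0.13 with protein-coding transcripts and 0.12 with WD males alone. Nfkbia was 0.0713 with sex, 0.13 with the replicate block, 0.11 with males, 0.061 with 16 columns and 0.14 with WD males alone. Nfkbib was 0.012 with sex, 0.073 with the block and 0.11 with 16 columns. With single libraries left out, Rel ranged from -0.23 to 0.026, Rela from -0.086 to 0.15, Nfkbia from -0.33 to 0.14, Nfkbib from -0.41 to 0.33 and Tnfaip3 from -0.80 to 0.11.

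In KO-ND against WT-ND, Nfkb1 was 0.12 with protein-coding transcripts and Rela 0.0015 with males. Nfkbie was -0.12 without scaling, -0.10 with sex, -0.087 with the block, -0.59 with long values left out, and -0.26 to 0.29 with single libraries left out. In WT-WD against WT-ND, Nfkb1 was -0.046 without scaling. In KO-WD against KO-ND the 7 members given no value in the text each changed sign in some alternative. The cause of these changes was not tested. Low reads limit Nfkbie (from 16.4) and Rel (from 59.0).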
